A study of Mus musculus with 36 samples.

Results

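MBD3 peaks of day 4 were set against MBD3 peaks of day 2 in mouse embryonic stem cells, to see which places had a peak on each day and which were found again on day 4. The members were all intervals of the authors' MBD3 peak lists of these 2 days on chromosomes 1 to 19, X and Y, with 1 row per interval. They number 10997, namely 9006 on day 4 and 1991 on day 2, of 182783 peaks in the 8 lists of the series. A peak counted as shared when it overlapped a peak of the other day by at least 1 bp. Among day 4 peaks without a day 2 peak, those that overlapped a day 0 MBD3 peak are called regained, and those on neither earlier list are called first found on day 4.

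The series holds 36 chromatin immunoprecipitation sequencing (ChIP-seq) samples in 12 groups of 3, with antibodies to MBD3 or CTCF or input chromatin on days 0, 2, 4 and 6, and its title concerns the NuRD complex at CTCF sites. The MBD3 day 4 and MBD3 day 2 groups hold 3 samples each, and the authors called 1 peak list per group from replicates 1 to 3 together. All groups were embryonic stem cells labelled mESC, grown with leukaemia inhibitory factor and serum replacement on gelatin and irradiated mouse fibroblast feeders. The labels give the day but no treatment that would set the days apart, no strain and no genotype, and the names of the lists call the cells WT. Feeder cells were not marked as removed, and signal from them cannot be told apart from that of the stem cells.

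MBD3 belongs to NuRD, a complex for nucleosome remodelling and histone deacetylation that joins an ATP-dependent remodeller of the CHD family with histone deacetylases and histone-binding proteins. In embryonic stem cells NuRD sits at many promoters and enhancers and tempers the level of pluripotency genes. CTCF is a zinc finger protein that binds a long DNA motif and, with cohesin, anchors chromatin loops.

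Each value of a peak is the peak caller's own. The fold enrichment is the height of the fragment pile-up at the summit over the expected background, and it was used only to describe or rank peaks. With 1 pooled list per day there is no spread between replicates, so no difference between days was tested. Shares carry exact (Clopper-Pearson) 95% intervals that cover counting error only. The background level that the caller assumed genome-wide, which follows the number and length of fragments sequenced, was 1.93 fragments on day 4 and 2.18 on day 2, and the fewest fragments in a peak at that level were 9 on day 4 and 10 on day 2. The lowest -log10 p of a listed peak was 4.12 on day 4 and 4.58 on day 2. Of the regained peaks 31 of 4079, and of those first found on day 4 196 of 3636, lay under the day 2 minimum. A place without a peak is one that did not pass the caller's threshold, and weak binding there was not measured. Binding in fewer cells and weaker binding in each cell cannot be told apart.

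Most day 4 peaks had no day 2 peak. Of the 9006 day 4 peaks, 4079 (45.3%, 95% interval 44.3 to 46.3) were regained, 3636 (40.4%, 39.4 to 41.4) were first found on day 4, and 1291 (14.3%, 13.6 to 15.1) were shared with day 2. Of the 1991 day 2 peaks, 1286 (64.6%, 62.4 to 66.7) overlapped a day 4 peak and 705 (35.4%, 33.3 to 37.6) were on day 2 alone. Of these 705, 94 overlapped a day 0 MBD3 peak and 611 did not. Which class was largest depends on the peaks kept. At a -log10 q of 10 or more 1534 were regained and 1573 first found on day 4, without peaks of high background 3378 and 3696, and with 1991 peaks per list 478 and 629, beside 884 shared. For CTCF, 71.6% of the day 4 peaks lay on a day 2 peak and 93.8% of the day 2 peaks on a day 4 peak. These shares are not compared with those of MBD3, since the lengths of its lists, 9006 and 1991, limit the first, which was 44.4% with lists of equal length.

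**Figure D1:**
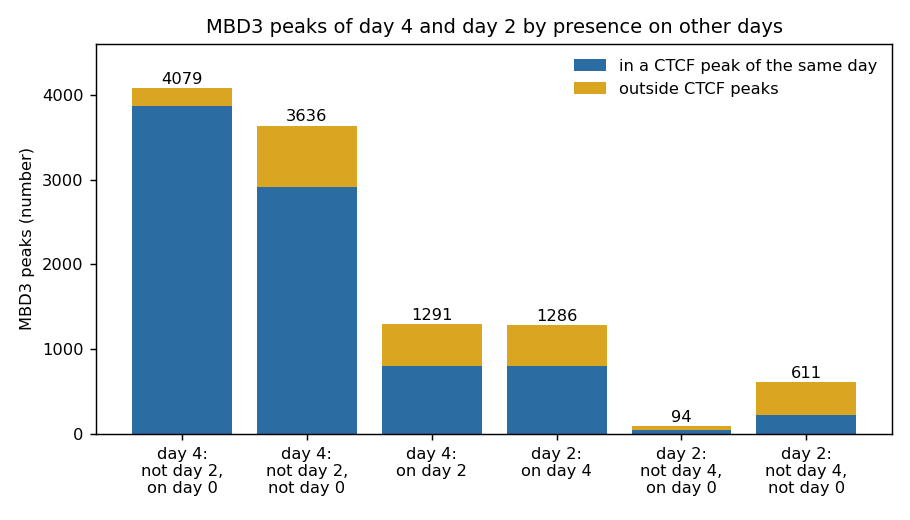
Number of MBD3 peaks (y axis) of day 4 (3 bars on the left) and day 2 (3 bars on the right) by whether the place had an MBD3 peak on the other day and on day 0, with the part of each bar inside a CTCF peak of the same day in blue. The bar of 4079 regained peaks is blue over nearly its whole height, while most of the 611 day 2 peaks found on neither day 4 nor day 0 lie outside CTCF peaks.

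Regained peaks were of middling height. Their median authors' fold was 3.73 (quartiles 3.12 to 4.50), close to the 3.69 of peaks first found on day 4 and under the 6.44 of shared peaks. They held more fragments than the peaks first found on day 4, with a median of 45 against 29 over the summit, and shared peaks held 72. Of the regained peaks 2091 of 4079 had a -log10 q of 10 or more, as did 793 of 3636 first found on day 4 and 1037 of 1291 shared ones. In the highest of 10 equal groups of day 4 fold, 71.8% of peaks were shared with day 2 and 14.8% were regained. In the third lowest group 3.11% were shared and 54.4% were regained. On day 2, the peaks shared with day 4 had a median fold of 4.76 and those on day 2 alone 3.77.

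To show what kind of sequence carried the peaks, the 250 bases before the start of genes with a peak summit there are printed, from RefSeq's GRCm38.p6 (the assembly of mm10, the build named for the lists). Each runs 5′ to 3′ on the gene's strand and ends at the base before the start, some run past an edge of the peak, and capitals mark CpG dinucleotides, the target of DNA methylation. The first set holds the 3 regained promoter peaks of highest -log10 q inside a CTCF peak. These are Mterf1a at chr5:3893934-3894183 (minus strand), which codes for a mitochondrial transcription factor, Ppif at chr14:25693920-25694169 (plus strand), which codes for mitochondrial cyclophilin D, and Brd7 at chr8:88362173-88362422 (minus strand), which codes for a bromodomain subunit of a SWI/SNF remodeller.
Mterf1a: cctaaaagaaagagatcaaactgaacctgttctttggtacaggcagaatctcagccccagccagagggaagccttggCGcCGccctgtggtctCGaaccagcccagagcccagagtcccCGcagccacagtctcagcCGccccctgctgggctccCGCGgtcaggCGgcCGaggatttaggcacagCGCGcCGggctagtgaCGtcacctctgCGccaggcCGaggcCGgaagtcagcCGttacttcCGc
Ppif: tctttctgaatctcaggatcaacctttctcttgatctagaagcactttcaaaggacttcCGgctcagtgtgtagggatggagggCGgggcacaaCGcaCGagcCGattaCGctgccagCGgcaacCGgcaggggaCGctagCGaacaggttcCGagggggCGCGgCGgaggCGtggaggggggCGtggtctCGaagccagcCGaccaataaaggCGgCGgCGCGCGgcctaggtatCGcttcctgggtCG
Brd7: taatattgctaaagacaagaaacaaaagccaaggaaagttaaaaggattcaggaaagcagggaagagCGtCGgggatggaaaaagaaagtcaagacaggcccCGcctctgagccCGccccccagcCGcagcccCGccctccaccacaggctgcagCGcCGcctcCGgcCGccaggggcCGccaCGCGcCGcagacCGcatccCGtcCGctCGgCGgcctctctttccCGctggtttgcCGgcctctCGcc
The second set holds the 2 regained promoter peaks of highest -log10 q outside CTCF peaks, the forkhead factor gene Foxk2 at chr11:121259737-121259986 (plus strand) and Bsn, which codes for the presynaptic protein Bassoon, at chr9:108190384-108190633 (minus strand).
Foxk2: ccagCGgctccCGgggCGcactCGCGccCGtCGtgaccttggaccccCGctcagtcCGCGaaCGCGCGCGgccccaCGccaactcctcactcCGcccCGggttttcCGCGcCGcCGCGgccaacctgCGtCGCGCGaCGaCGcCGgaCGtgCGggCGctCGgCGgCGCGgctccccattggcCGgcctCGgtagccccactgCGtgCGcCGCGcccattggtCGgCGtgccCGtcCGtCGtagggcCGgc
Bsn: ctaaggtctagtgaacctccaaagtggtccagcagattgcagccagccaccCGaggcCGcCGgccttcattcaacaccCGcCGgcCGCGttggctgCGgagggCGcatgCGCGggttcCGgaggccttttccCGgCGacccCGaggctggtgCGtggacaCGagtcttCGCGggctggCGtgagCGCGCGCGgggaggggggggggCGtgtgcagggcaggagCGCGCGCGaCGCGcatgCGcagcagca
For contrast, the strongest promoter peak of day 2 alone by -log10 q lay at the predicted gene Gm52421, chrX:73035770-73036019 (plus strand), and the strongest shared one at Nipsnap2, a gene for a mitochondrial protein, chr5:129724825-129725074 (plus strand).
Gm52421: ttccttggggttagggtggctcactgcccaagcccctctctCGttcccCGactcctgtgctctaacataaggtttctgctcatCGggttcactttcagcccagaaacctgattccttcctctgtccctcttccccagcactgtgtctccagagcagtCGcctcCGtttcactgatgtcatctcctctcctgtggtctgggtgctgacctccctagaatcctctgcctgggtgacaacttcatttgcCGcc
Nipsnap2: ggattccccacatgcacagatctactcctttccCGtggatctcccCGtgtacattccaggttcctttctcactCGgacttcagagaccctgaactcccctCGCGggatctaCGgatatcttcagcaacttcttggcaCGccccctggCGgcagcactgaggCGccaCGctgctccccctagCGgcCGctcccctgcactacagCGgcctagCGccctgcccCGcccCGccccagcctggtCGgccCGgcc

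The 250 bases hold 18 CpG at Mterf1a, 25 at Ppif, 22 at Brd7, 48 at Foxk2 and 32 at Bsn, with 18 at the shared Nipsnap2 and 6 at Gm52421. At Mterf1a the MBD3 fold was 6.85, 9.11 and 5.87 on days 0, 4 and 6, with no peak on day 2, and the CTCF fold was 20.8, 8.54, 24.0 and 20.8 on days 0, 2, 4 and 6. The Ppif promoter had MBD3 folds of 5.74, 6.86 and 4.23 on days 0, 4 and 6 and CTCF folds of 21.9, 9.59, 23.3 and 21.0 on the 4 days. The Brd7 promoter had MBD3 folds of 7.28, 6.15 and 9.80 on days 0, 4 and 6 and CTCF folds of 31.5, 13.6, 20.6 and 32.8 on the 4 days. At all 3 the CTCF peak was present on day 2 with its lowest fold of the 4 days, while MBD3 had no peak. Foxk2 had MBD3 folds of 3.12, 7.60 and 2.90 on days 0, 4 and 6 and no CTCF peak on any day. Bsn had an MBD3 fold of 5.75 on day 0 and 6.29 on day 4, with no peak on day 2 or day 6. The Gm52421 promoter had an MBD3 fold of 6.25 on day 2 and 5.24 on day 0 and none later. The Nipsnap2 promoter had MBD3 on all 4 days, with folds of 28.6, 8.92, 19.4 and 24.7 in order of day.

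Over the promoter table, windows of 250 bases before to 50 after a start were counted by class when they held a summit, and chromosome 18 has no window in it. The ratio of observed to expected CpG had a median of 0.80 in the 480 windows with a regained peak inside CTCF, against 0.38 over all 32851 windows. The CTCF core, searched on both strands as CCANNAGNG, was found in 35.8% of these 480 and in 17.9% of all windows. The GC box GGGCGG, also on both strands, was found in 66.2% of them and in 35.7% of all windows. The TATA box TATAAA was found in 6.67% of them and 13.6% of all windows, CCAAT in 27.7% and 37.4%, and the E-box CACGTG in 9.17% and 7.15%. Inside CTCF the CpG ratio and the CTCF core were similar in the other classes of day 4. The 183 windows of peaks first found on day 4 had a median ratio of 0.73, the core in 33.9% and the GC box in 57.4%. The 91 windows of shared peaks had 0.79, 35.2% and 61.5%. Peaks first found on day 4 outside CTCF lay in 72 windows, whose median CpG ratio was 0.93, with the GC box in 87.5% and the CTCF core in 20.8%. Regained peaks outside CTCF lay in 12 windows, with 0.93, 66.7% and 16.7%. Shared peaks lay in 97 windows with a median CpG ratio of 0.82. Only 7 windows held a summit of day 2 alone, with a median CpG ratio of 0.88, and 0 of them had the CTCF core. CpG content rises with GC content, and so does the frequency of GGGCGG, and a match of letters is not a bound site.

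Regained MBD3 peaks lay almost wholly inside CTCF peaks, a readout that did not define them. On day 4, 3868 of 4079 (94.8%, 94.1 to 95.5) overlapped a CTCF peak, against 80.2% (78.9 to 81.5) of peaks first found on day 4 and 62.4% (59.6 to 65.0) of shared peaks. On day 2, when MBD3 had no peak there, CTCF still had one at 3850 of the 4079 (94.4%, 93.6 to 95.1). CTCF was listed on all of days 0, 2 and 4 at 3843 of them (94.2%), and at 89 (2.18%) it had no peak on any of the 4 days. Of the peaks on day 2 alone, 269 of 705 (38.2%, 34.6 to 41.9) overlapped a CTCF peak of day 2 and 404 (57.3%) had no CTCF peak on any day. The low share among shared peaks partly counts their pseudogenes, and without peaks on pseudogenes it was 76.9%. Because both antibodies gave their shortest list on day 2, CTCF values stand beside those of MBD3 below, and carry-over or cross-reaction between the antibodies was not tested.

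CTCF enrichment at the regained places was also lower on day 2. Its median authors' fold there was 13.57, 6.42, 13.27 and 13.82 on days 0, 2, 4 and 6. On the same days it was 17.17, 9.95, 17.41 and 18.48 at shared peaks, and 9.83, 5.97, 12.80 and 12.51 at peaks first found on day 4. Where both days had a CTCF peak, the ratio of its day 4 fold to its day 2 fold at regained places had a median of 2.03 (quartiles 1.67 to 2.47), and day 4 was higher at 3803 of 3844. At CTCF peaks that met no MBD3 peak on any day the ratio was 1.62 (1.26 to 2.05), with day 4 higher at 11094 of 12242. CTCF peaks without MBD3 had a lower CTCF fold on day 0, with a median of 6.73 over the 18923 with a day 0 peak. Both sets were therefore also read in groups of day 0 fold. The 4 groups, from low to high, were cut at 11.23, 13.73 and 16.86. The ratio in them was 2.05, 2.08, 2.01 and 1.97 at regained places and 1.61, 1.72, 1.75 and 1.71 at CTCF peaks without MBD3. The groups held 961, 962, 959 and 961 regained places and 9955, 1167, 503 and 173 CTCF peaks without MBD3. The lowest group has no lower limit, so day 0 folds of the 2 sets need not be alike in it. At peaks first found on day 4 the ratio was 2.13 overall and 2.14, 2.16, 2.06 and 2.07 in the same groups, and at shared peaks it was 1.71 overall. The ratio at regained places was thus not particular to them, and these ratios describe the lists only, since folds depend on the background of each list.

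**Figure D2:**
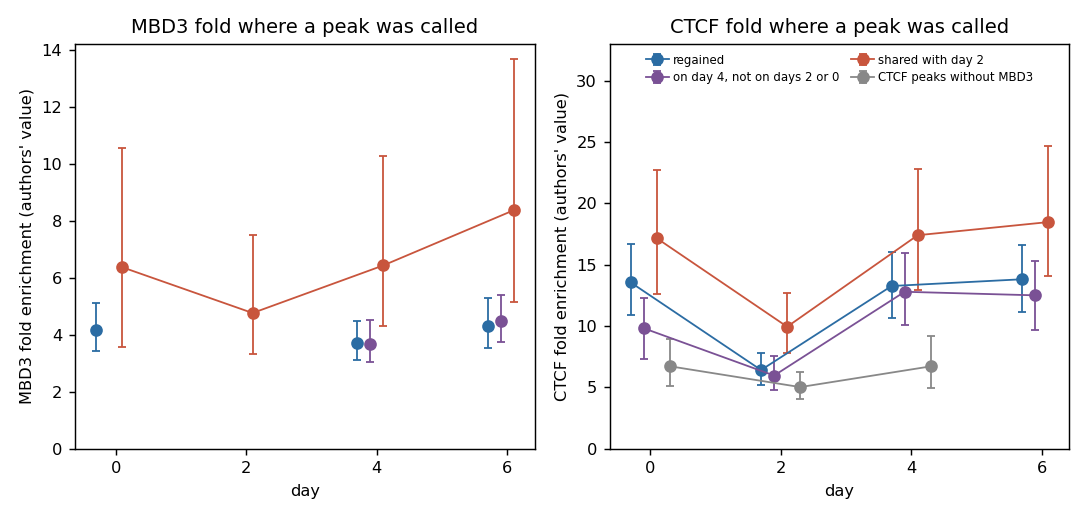
Median authors' fold (y axis, points, with quartiles as bars) by day (x axis) for MBD3 on the left and CTCF on the right, at regained peaks, at peaks first found on day 4, at peaks shared with day 2 and, for CTCF, at CTCF peaks without MBD3, over the places with a peak on that day and with points moved sideways for legibility. CTCF at regained places stands at 13.57, 6.42, 13.27 and 13.82 on days 0, 2, 4 and 6, and MBD3 there has no point on day 2 by definition.

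On day 6, which took no part in naming the classes, 3062 of the 4079 regained peaks (75.1%, 73.7 to 76.4) were found again. The share was 40.8% (39.2 to 42.4) for peaks first found on day 4, 89.2% (87.3 to 90.8) for shared peaks and 23.0% (19.9 to 26.3) for peaks on day 2 alone. At regained places the median MBD3 fold was 4.16 on day 0, 3.73 on day 4 and 4.32 on day 6 where found. Peaks first found on day 4 had a like fold on that day, 3.69, and a lower share on the next list. They also held fewer fragments than regained peaks, with medians of 29 and 45, and had a lower median -log10 q, 6.3 against 10.3. Regained peaks were on the day 0 list too by definition.

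The regained places of highest fold inside CTCF peaks lay between genes. The highest fold was found at chr2:101472832-101473125, between genes and 87820 bp from the nearer end of Iftap, with MBD3 folds of 10.9, 16.0 and 17.5 on days 0, 4 and 6. The CTCF folds there were 18.5, 10.6, 35.4 and 34.8 on the 4 days. The next, at chr12:69360679-69360967, 3644 bp from Nemf, a ribosome quality control gene, had MBD3 folds of 7.06, 15.6 and 16.8 on those days. The third, at chrX:161399136-161399508, between genes, had folds of 5.43, 15.5 and 13.3 on days 0, 4 and 6. Outside CTCF peaks the regained places of highest fold were chr6:126788891-126789182, 32801 bp from the respiratory complex gene Ndufa9 (10.2, 13.9 and 7.85 on days 0, 4 and 6), and chr9:117220781-117221096 inside the RNA-binding protein gene Rbms3 (12.2, 13.0 and 16.2 on the same days). The third was the Foxk2 promoter shown above.

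Among peaks first found on day 4, those of highest fold inside CTCF peaks lay inside the oxysterol-binding protein gene Osbpl1a (12.7), 231686 bp from Ank, a pyrophosphate transport gene (11.1), and inside the autophagy gene Rb1cc1 (10.8). Outside CTCF peaks, places among the highest lay at the pseudogene Gm5216 (9.96) and inside Smarce1, a SWI/SNF subunit gene (8.04). Of the places named here, all but the Smarce1 peak were found on day 6 as well. On day 2 alone the highest folds outside CTCF were at the pseudogene Gm11826 (20.4), inside the RNA helicase gene Ddx3x (14.7) and at the pseudogene Gm7266 (14.5). Inside CTCF peaks they were 10.1 at chr5:10486429-10487021, 9.85 at chr13:62721465-62721817 and 9.40 at chr13:4778416-4778673, all between coding genes.

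Regained peaks were found near gene ends more often than the genome's share of such places. A summit lay within 1 kb of either end of a protein-coding gene at 910 of 4079 regained peaks (22.3%, 21.0 to 23.6), where such windows make up 2.91% of the genome. The share was 19.1% for peaks first found on day 4, 22.2% for shared peaks and 14.5% (12.0 to 17.3) for peaks on day 2 alone. The order of the classes depends on the peaks kept, with the classes made again from the cut lists. At a -log10 q of 10 or more the share was 22.8% on day 2 alone, 22.1% for shared peaks, 21.2% for those first found on day 4 and 26.8% for regained ones, and without peaks of high background it was 12.4% for shared and 18.1% for regained peaks. Counting annotated starts alone, without chromosome 18, it was 17.2% of regained peaks and 9.29% of peaks on day 2 alone, against 1.42% of the genome. Between genes lay 35.4% of regained peaks and 26.0% of peaks on day 2 alone, against 53.0% of the genome. Peaks first found on day 4 split by CTCF, with 37.3% (33.7 to 40.9) of the 719 outside CTCF and 14.6% (13.3 to 15.9) of the 2917 inside it near a coding gene end. For regained peaks the intervals overlapped, with 18.5% (13.5 to 24.4) of 211 outside and 22.5% (21.2 to 23.9) of 3868 inside.

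**Figure D3:**
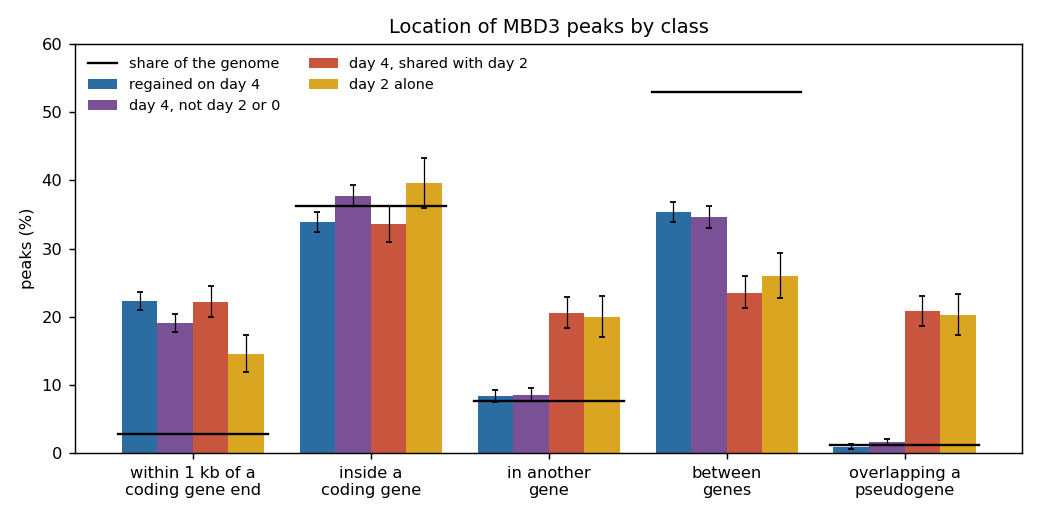
Share of peaks (y axis, percent, bars with exact 95% intervals) in each kind of place for regained peaks, peaks first found on day 4, peaks shared with day 2 and peaks on day 2 alone, with the share of the genome as a black line. Pseudogenes are a separate count that overlaps the other kinds. The bars near coding gene ends stand above the genome's 2.91% in all 4 classes, and those on pseudogenes are near 20% for shared peaks and peaks on day 2 alone.

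The 2 lists held similar numbers of peaks on pseudogenes, but as unlike shares. They numbered 369 of 9006 (4.10%) on day 4 and 405 of 1991 (20.3%) on day 2. Of the 405, 262 were shared with day 4. Of regained peaks 0.981% overlapped a pseudogene, near the genome's 1.18%, as did 1.68% of peaks first found on day 4. Of shared peaks 20.8% (18.6 to 23.1) did, and of peaks on day 2 alone 20.3% (17.4 to 23.4). Many pseudogenes are near copies of expressed genes, and how the authors placed reads that match several copies is not given in the sources used here. Chromosome X held 1.20% (0.890 to 1.59) of regained peaks and 1.54% (1.17 to 2.00) of peaks first found on day 4. It held 3.49% of shared peaks and 3.26% of peaks on day 2 alone, against 2.51% of day 4 CTCF peaks.

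The peaks on day 2 alone crowded into a few stretches, a pattern chosen after their positions were seen. In bins of 5 Mb, those with at least 15 such peaks formed 3 stretches, on chromosome 8 from 15 to 25 Mb, chromosome 4 from 145 to 150 Mb and chromosome 14 from 0 to 10 Mb. Together they held 169 of the 705 peaks (24.0%, 20.9 to 27.3), but 1.54% of regained peaks and 1.46% of those first found on day 4. The stretch on chromosome 8 had 79 of them and holds the defensin genes, which code for antimicrobial peptides, with 28 symbols that start with Defa and 24 with Defb among its 108 coding genes. The stretch on chromosome 4 had 49, and 16 of its 65 coding genes are named as zinc finger proteins (Zfp). The stretch on chromosome 14 had 41, and 71 of its 91 coding genes have only a predicted-gene (Gm) name.

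In these stretches MBD3 had 151, 192, 139 and 123 peaks and CTCF 513, 555, 377 and 383 on days 0, 2, 4 and 6. The MBD3 count of day 2 restates how the stretches were chosen. CTCF, which took no part in the choice, also had its highest count there on day 2, whereas over all chromosomes its day 2 list was the shortest. Of the 169 peaks on day 2 alone, 96 (56.8%, 49.0 to 64.4) lay in a CTCF peak of day 2 where CTCF had none on day 0 or 4, against 58 of the 536 elsewhere (10.8%, 8.32 to 13.8). Of the 169, 4 were found again on day 6. Their median fold was 3.24 over a median expected background of 10.6 fragments, against 3.77 and 6.18 for all peaks on day 2 alone. The stretches differed, with 2.92 over 16.5 on chromosome 8, 3.36 over 9.95 on chromosome 14 and 4.17 over 5.15 on chromosome 4. Defensin and zinc finger genes are families of similar copies, and copy number, read placement and binding cannot be told apart in these lists. Outside them, 70.2% of day 2 peaks overlapped a day 4 peak.

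Peaks present on both days did not move alike. At the 787 shared places inside a CTCF peak and off pseudogenes, the median MBD3 fold was 6.91 on day 4 and 4.18 on day 2, and day 4 was higher at 700. At the 268 on pseudogenes it was 6.85 on day 4 and 8.36 on day 2, and day 4 was higher at 77. At the 236 in neither it was 4.52 on day 4 and 5.06 on day 2, and day 4 was higher at 91. The ratio of day 4 to day 2 fold had a median of 1.72 (quartiles 1.28 to 2.17) in CTCF peaks, 0.78 (0.60 to 1.02) on pseudogenes and 0.90 (0.69 to 1.09) in neither. The fragments over the summit followed, with medians of 93 on day 4 and 63 on day 2 in CTCF peaks, 42 on day 4 and 66 on day 2 on pseudogenes, and 59 on day 4 and 93 on day 2 in neither. The summits of both days lay a median of 9 bp apart.

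**Figure D4:**
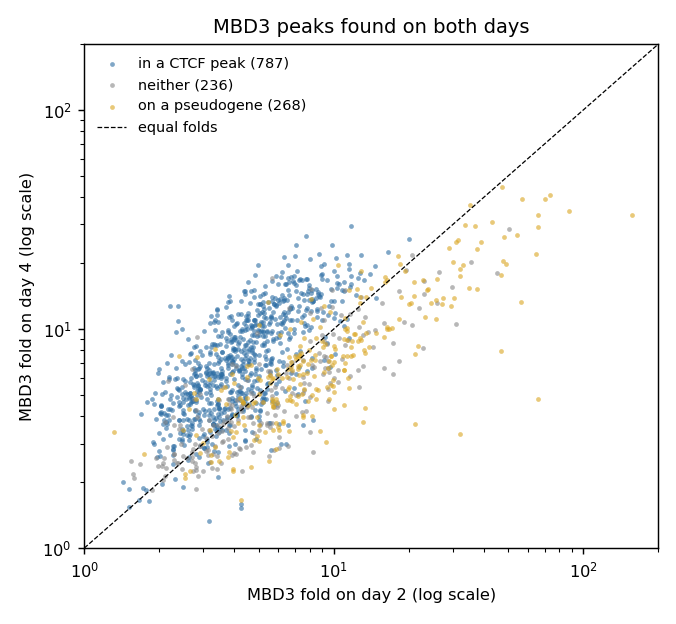
Authors' MBD3 fold on day 4 (y axis, log scale) against day 2 (x axis, log scale) at the 1291 shared places, coloured by kind, with equal folds as a dashed line. Places in CTCF peaks lie mostly above the line (700 of 787) and those on pseudogenes mostly below it (191 of 268 higher on day 2).

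The shared places named here were ranked by day 4 fold, a choice that favours a day 4 fold above that of day 2. Inside Apbb2, which codes for an adaptor of the amyloid precursor protein, the MBD3 fold was 29.5 on day 4 and 11.7 on day 2, with CTCF at 35.5 on day 4 and 22.0 on day 2. Inside Nxpe3 MBD3 stood at 26.6 on day 4 and 7.75 on day 2. Inside Ctif, a gene of cap-dependent translation, it stood at 25.8 on day 4 and 20.1 on day 2. Outside CTCF the shared peaks of highest fold were all on pseudogenes, with 44.6 on day 4 and 47.1 on day 2 at Gm8130, 41.1 on day 4 and 73.5 on day 2 at Gm9843, and 39.2 on day 4 and 56.8 on day 2 at Rpl14-ps1. The fold at these 3 was at most 2.06 on day 0.

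At the level of genes, the day 4 list added many that the day 2 list lacked. Of 21887 protein-coding genes, 2157 (9.86%) had an MBD3 peak within 1 kb of either end on day 4 and 466 (2.13%) on day 2. These make 1809 (8.27%) on day 4 only, 118 (0.539%) on day 2 only and 348 (1.59%) on both days. Of the 1809, 1061 (58.7%) had one on day 0 too, 1007 (55.7%) on day 6, and at 1488 (82.3%) the peak lay in a CTCF peak. Of the 118 genes of day 2 only, 28 (23.7%) had one on day 0, 20 (16.9%) on day 6, and at 19 (16.1%) the peak lay in a CTCF peak. The gene lists below were read against the shares 8.27%, 0.539% and 1.59%, with no test of a list.

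Among regulators of pluripotency, 3 of 22 had a peak on day 4 and 2 on day 2. Sox2 and Pou5f1, core factors of the pluripotent state, had peaks on both days, with folds of 6.02 on day 4 and 7.50 on day 2 at Sox2 and 4.39 on day 4 and 4.48 on day 2 at Pou5f1. Klf5, a naive-state factor, had a peak on day 4 only, with a fold of 2.56. None of the 12 formative and primed genes had a peak on either day. Both Sox2 and Pou5f1 lay outside CTCF peaks.

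At 82.3% of all genes of day 4 only the peak lay in a CTCF peak. Of 18 mesoderm and endoderm regulators 4 (22.2%) had a peak on day 4 only, all inside a CTCF peak. These were Eomes and Mesp1, factors of early mesoderm, with day 4 folds of 3.44 and 3.21, and the endoderm factors Sox17 (2.68) and Gata6 (2.28). Mesp1 and Sox17 had an MBD3 peak at the same place on day 0, with folds of 3.92 and 3.53. Of 16 neuroectoderm genes Sox1 (6.25% of the list) had a weak one on day 4 only, with a fold of 2.34 and a -log10 q of 2.2. Of 10 trophoblast genes Krt8, a keratin gene, had one on day 4 only (10.0%), with a fold of 3.40 on day 4 and 4.31 on day 0. Both shares are near the 8.27% of all coding genes. None of the genes in these 3 lists had a peak on day 2, when 2.13% of all coding genes did. Of 39 Hox genes, which pattern the body axis, 6 (15.4%) had one on day 4 only and 5 of these lay in a CTCF peak. Folds were 5.31 at Hoxc10, 3.80 at Hoxb5 and 3.04 at a peak that Hoxa5 and Hoxa6 share, and the day 0 folds at these 3 peaks were 6.07, 4.64 and 2.29. Of 12 fibroblast markers, listed because feeders were present, Col1a1 had a peak on both days, with a fold of 6.38 on day 4 and 3.08 on day 2.

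Genes of the chromatin machinery had peaks on both days in part. Of 15 NuRD subunit genes, Rbbp7, a histone-binding subunit (8.30 on day 4 and 14.4 on day 2), Hdac2, a deacetylase (3.86 on day 4 and 4.13 on day 2), and Mbd3 itself (2.48 on day 4 and 3.19 on day 2) had peaks on both days, and the remodeller gene Chd3 had one on day 4 only (2.65). All 4 lay outside CTCF peaks. Of 15 CTCF and cohesin genes, Stag2, a cohesin subunit (11.3 on day 4 and 5.62 on day 2), and Ctcf (5.00 on day 4 and 3.23 on day 2) had peaks on both days. The cohesin acetyltransferase gene Esco1 (7.54) and the cohesin regulator gene Pds5b (5.19) had one on day 4 only, and all 4 lay in CTCF peaks. Esco1 and Pds5b had day 0 folds of 8.88 and 4.52. Of 9 genes of DNA methylation, Uhrf1, which reads hemimethylated DNA (2.01), and the 5-methylcytosine oxidase gene Tet2 (2.29) had a weak peak on day 4 only. Of 20 imprinted genes matched, H13 had one on day 4 only (3.08, with 3.78 on day 0).

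Housekeeping lists held all 10 list genes found on day 2 only. Of 79 ribosomal protein genes, 14 (17.7%) had a peak on day 4 only, 2 on day 2 only and 7 on both. On day 4 only, Rplp0 (5.77), Rpl10a (4.10) and Rps19 (5.69) were among the strongest, all in CTCF peaks, as were 13 of the 14. Over all genes of day 4 only that share was 82.3%. On day 2 only there were Rps23 (8.27) and Rpl14 (5.09), and on both days Rpl22 (16.0 on day 4 and 11.7 on day 2), Rpl4 (15.6 on day 4 and 29.8 on day 2), Rps29 (7.29 on day 4 and 3.53 on day 2) and Rpl41 (5.69 on day 4 and 7.60 on day 2) led. Rpl22 and Rps29, higher on day 4, lay in CTCF peaks, and Rpl4 and Rpl41, higher on day 2, did not. Ribosomal protein genes have many pseudogene copies, and reads could be shared between them.

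Of 30 translation factor genes, 5 (16.7%) had a peak on day 4 only, 2 on day 2 only and 7 on both. Eif3f (5.51), Eef1g (5.61), Eif2s1 (2.35) and Eef1d (2.65) led on day 4 only. The Eif2s1 peak lay inside Atp6v1d, 167 bp from an end of that gene, and the Eef1d peak was nearest to Naprt (142 bp). Eef2, the elongation factor of translocation (3.45), and Eif4g1, a scaffold of the cap-binding complex (2.72), had a peak on day 2 only. Of the genes on both days, Eef1b2 (6.51 on day 4 and 3.15 on day 2) lay in a CTCF peak, while Eef1a1 (6.10 on day 4 and 11.7 on day 2), Eif3b (3.22 on day 4 and 6.01 on day 2) and Eif5a (3.66 on day 4 and 3.29 on day 2) did not.

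Of 21 chaperone genes 2 had a peak on day 4 only, Ppia (3.11) and Cct5 (2.12), and 3 on day 2 only. These were Hsp90ab1, a cytosolic HSP90 gene (7.68), Hspa9, a mitochondrial HSP70 gene (6.89), and Hspa8, the constitutive HSP70 gene (4.32). Hsp90ab1 and Hspa8 had a peak again on day 6, with folds of 7.88 and 6.83. Of 14 glycolysis genes 3 (21.4%) had a peak on day 4 only, Pfkl (2.65), Ldha (3.70) and Pkm (2.14). Of 20 cytoskeleton genes Tuba1a had one on day 4 only (2.58), Cfl1 (4.18) and Tuba1b (4.66) on day 2 only, and Tubb4b (6.34 on day 4 and 6.81 on day 2) and Actn4 (3.81 on day 4 and 3.77 on day 2) on both. Of 20 nucleolar and RNA-binding protein genes Hnrnpf had one, on day 2 only (5.53). The 10 list genes of day 2 only all lay outside CTCF peaks. Over all 118 genes of day 2 only, the peak lay inside one at 19 (16.1%).

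**Figure D5:**
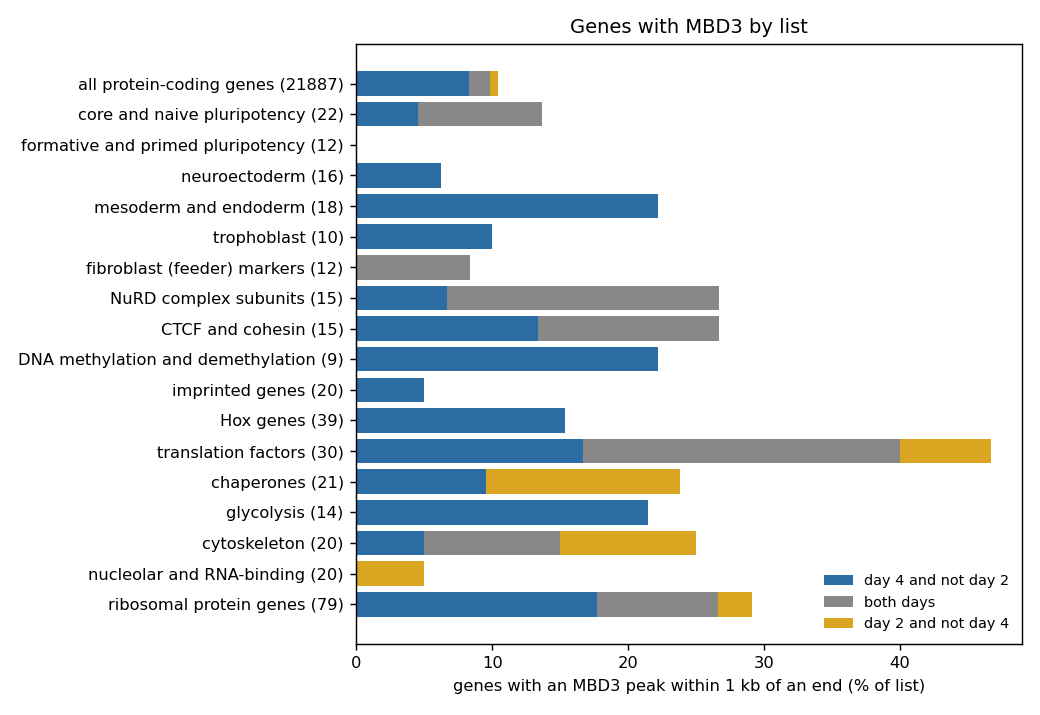
Share of each gene list (x axis, percent, number of genes in brackets) with an MBD3 peak within 1 kb of either end on day 4 and not day 2, on both days, and on day 2 and not day 4, with all protein-coding genes at the top. All protein-coding genes stand at 8.27%, 1.59% and 0.539% for the 3 colours from left to right.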

How the data were processed

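ChIP-seq with antibodies to MBD3 and CTCF was done on days 0, 2, 4 and 6, with 3 samples per group and no link between samples other than the label's replicate number. The submitters' processing notes name mm10 as the build and, as tools, MACS2 2.1.2, Bowtie2 2.3.4, bedtools 2.25.0, SAMtools 1.9 and FastQC 0.11.7. By the names of the deposited lists, each was called on replicates 1 to 3 pooled. The authors deposited for each peak its fold enrichment, a ratio of pile-up to expected background, together with its -log10 p-value and -log10 q-value, whose minimum of 1.30 is a q near 0.05. The labels' protocols describe PCR-amplified paired-end libraries without molecular identifiers.

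Rows of 1 interval were merged, keeping the summit of highest -log10 q, and mitochondrial and unplaced sequences were left out. Fragments and background per summit were recovered from fold and p, with a match within 0.100% of the -log10 p for 99.7% of day 4 and 98.7% of day 2 peaks. The background level of a list is the lowest value that at least 0.500% of its peaks share. Genes came from RefSeq's GRCm38.p6, which gave 21887 protein-coding genes without exons. Exons, introns and peak sequences were not analysed here. Promoter windows were given for 17492 of these genes.

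The members, gene lists, motifs and alternatives were chosen with earlier results of these data known. Named places are the 3 of highest fold per class, with and without CTCF. Places and genes of day 2 alone were ranked on day 2 and all others on day 4. Named genes are up to 4 per list and class in order of -log10 q, and printed promoters are those of highest -log10 q. Some that meet these rules are not reported here. The stretches of day 2 peaks and the fold ratios were added after seeing the data. Alternatives were summits within 100 bp, an overlap of 50% of the shorter peak, a minimum -log10 q of 10, MBD3 lists of equal length, windows of 5 kb and all chromosomes. Others left out pseudogenes, the stretches, or peaks whose background was more than 10 times the level. Lists were cut on every day before the classes were made again. The -log10 q, pseudogene and stretch alternatives also cut the CTCF lists. The code ran in Python 3.11.15 (scipy 1.17.1, pandas 2.3.3, numpy 2.4.6, matplotlib 3.10.9), and the overlap and recovery code was tested on simulated data.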

Additional observations from a re-analysis of the deposited data

Results flagged for a closer look

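Peaks outside the chromosomes used above were present in both MBD3 lists. On the mitochondrial chromosome there were 13 MBD3 peaks on day 4 and 7 on day 2. On unplaced sequences there were 18 on day 4 and 21 on day 2. These entered no count above other than the one over all chromosomes.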

How the results depend on the processing

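The 9 alternatives covered 28 results. Only the fold ratios among these were checked for a turn in direction, and none turned. The order of classes, which changed in places as given above, was not part of that check. At a -log10 q of 10 or more, 20.8% of day 4 peaks lay on a day 2 peak (14.3% as reported) and 73.6% of day 2 peaks on a day 4 peak (64.6%). Regained peaks then numbered 1534 with 98.4% in CTCF peaks, 22.8% of peaks on day 2 alone lay in CTCF peaks (38.2%), and 861 genes had a peak on day 4 only. The CTCF lists were cut at the same -log10 q, so the shares in CTCF peaks do not reflect the MBD3 peaks alone. With 1991 peaks per MBD3 list the shares were 44.4% of day 4 and 44.5% of day 2 peaks. Regained peaks then numbered 478 with 98.3% in CTCF peaks, and genes 395 on day 4 only and 219 on day 2 only, so these counts follow the length of the lists. Summits within 100 bp gave 61.6% for day 2 peaks on day 4 and 31.8% for day 2 alone in CTCF. Without pseudogenes 11.8% of day 4 peaks lay on day 2 peaks and 42.6% of those on day 2 alone lay in CTCF. Without high background the shares were 11.4% of day 4 and 58.8% of day 2 peaks, with 78 genes on day 2 only. Windows of 5 kb gave 3367 genes on day 4 only and 183 on day 2 only. Without the stretches, 70.2% of day 2 peaks lay on day 4 peaks and 31.3% of those on day 2 alone lay in CTCF. Other causes were not tested. Of the remaining results, 122 values stayed within their interval, quartiles or 1.5 times the count, and 50 moved outside it. Those over 1.5 times were peaks on day 2 alone found on day 6 (9.58% with equal lists) or on pseudogenes (35.5% at the higher q), and near gene ends those on day 2 alone (22.8% at the higher q), first found on day 4 (30.4% with equal lists) and shared (12.4% without high background). Windows of 5 kb gave 43.8% of regained, 36.2% of first found, 41.4% of shared and 29.4% of day 2 alone peaks. Genes with a peak on both days numbered 217 at the higher q, 137 without high background and 763 with 5 kb windows (348 as reported). No paired analysis was possible because peaks were called on pooled replicates, and no replicate could be left out for the same reason.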

Other observations

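Few peaks overlapped small RNA genes. Of the 9006 day 4 peaks 10 overlapped miRNA genes, and of the 1991 day 2 peaks 5 did. Mir3086, Mir5122, Mir6538 and Mir6939 were at regained peaks and Mir145a and Mir7032 at peaks first found on day 4. For tRNA genes there were 7 such peaks on day 4, 3 of them regained, and 0 on day 2, the shorter list. Long noncoding RNA genes were overlapped by 502 of the 4079 regained peaks, 412 of the 3636 first found on day 4 and 47 of the 705 on day 2 alone. Over the whole lists they were overlapped by 1046 of 9006 day 4 peaks and 179 of 1991 day 2 peaks. The expected background at the summit was over 10 times the list's level at 15.9% of regained peaks, 3.99% of those first found on day 4, 17.9% of shared day 4 peaks and 13.1% of peaks on day 2 alone.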
